A study of Bos taurus with 12 samples.

Results

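The hypoxia pathway genes described here are EPAS1, HIF1A, EGLN1, EGLN3, VEGFA, ADM, BNIP3, BNIP3L, NDRG1 and DDIT4. All 10 were measured, by 16 probe sets out of 24016, controls left aside. They were chosen by gene symbol and not by a cut on their values, but with earlier results of these data known. Every probe set was kept separately. RNA was taken from growth plate chondrocytes, the cells of the cartilage in which long bones lengthen, from the distal metacarpus of male dairy cattle under 10 months of age. The cells were freed by 4 hours of collagenase digestion and parted by density, and the lightest fraction was called the hypertrophic zone (HZ, 6 arrays) and the heaviest the reserve zone (RZ, 6 arrays). Each array of one zone was paired by number with an array of the other. The labels call the 6 pairs independent without saying that each came from 1 animal, and p-values therefore speak only of how these pairs varied. Both fractions had passed through the same digestion, so every level was measured after it.

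Cells answer low oxygen mainly through hypoxia-inducible factors (HIF), which pair an oxygen-regulated alpha subunit, HIF1A or EPAS1 (HIF-2 alpha), with the stable partner ARNT. When oxygen is present, prolyl hydroxylases of the EGLN family mark the alpha subunits for destruction, so HIF activity is set largely at the protein and not at the RNA level. The growth plate has no blood vessels inside it, and in mice its inner chondrocytes need Hif1a to survive. In mouse chondrocytes Epas1 has been reported to raise Col10a1, Mmp13 and Vegfa, and VEGFA from hypertrophic cartilage draws in vessels.

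In HZ, transcripts of EPAS1, of the oxygen sensor EGLN1, of the vasodilator peptide gene ADM and of the mitophagy receptor BNIP3L rose. Those of HIF1A, EGLN3, VEGFA, BNIP3, NDRG1 and DDIT4 did not pass the test. Of the 16 probe sets 7 rose and 0 fell (limma with the pair as a block, Benjamini-Hochberg adjusted p under 0.05 over all probe sets), where 6.22% of all probe sets passed. By direction, 3.26% of all passed as higher and 2.96% as lower. At an unadjusted p under 0.05, 9 of the 16 were higher and 1, that of DDIT4, was lower, where 22.2% of all reached that level. Of the 16, 7 were higher in HZ in every pair (6.85% of all probe sets) and 1 was lower in every pair (7.15%). In 5 of the 16 all HZ arrays lay above all RZ arrays, which held for 1.68% of all probe sets, and in 0 of the 16 did all lie below, which held for 1.21%. The 16 log2 differences had a median of 0.35, against -0.01 over all probe sets.

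Levels are given as signal, on a scale where every array has a median near 96.7, and a level of one probe set cannot be set against that of another. The summed signals of marker lists below are led by the brightest probe sets and measure no share of cells. Differences are HZ minus RZ of log2(signal + 16) with their standard error (SE), and on this scale a fold comes out too small where a probe set is dim. In these bulk fractions, fewer cells that make a transcript and less of it per cell cannot be told apart.

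**Figure D1:**
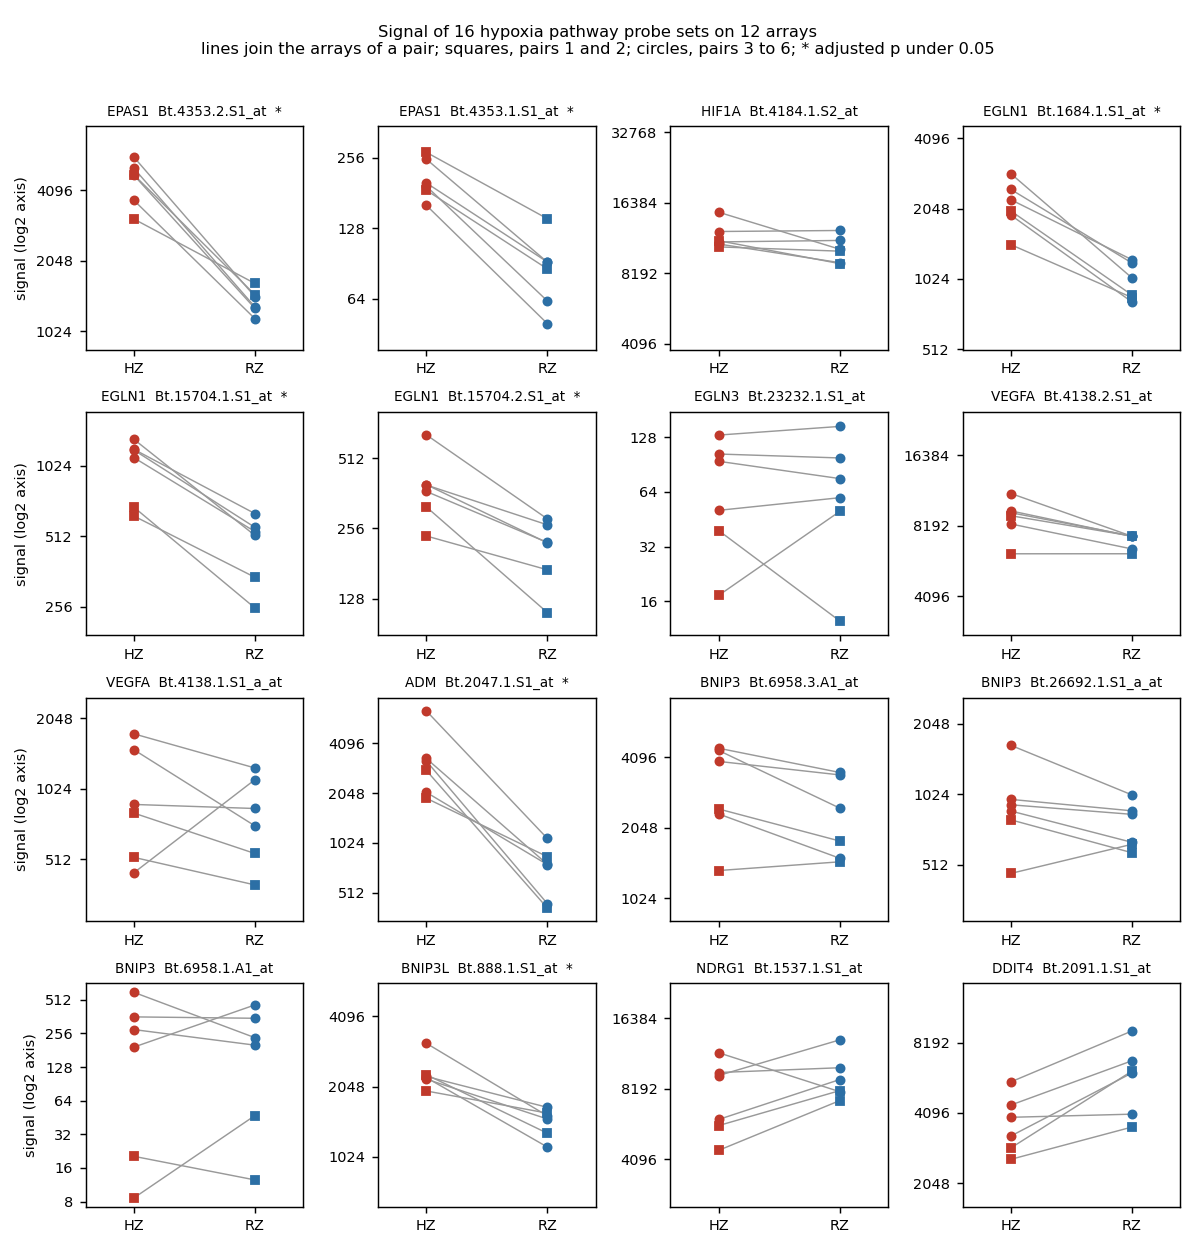
Signal of each of the 16 probe sets (log2 axis) in the 6 HZ arrays and the 6 RZ arrays, with lines joining the arrays of a pair and an asterisk for adjusted p under 0.05. The arrays of HZ and RZ did not overlap for both EPAS1 probe sets, ADM, BNIP3L and the brightest EGLN1 probe set.

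Zone markers are given for reference, from lists chosen with earlier results of these data known, so they are no independent check of the labels. Of 6 hypertrophic zone markers 5 were higher in HZ (MMP13, IHH, MEF2C, PTH1R and ALPL) and COL10A1 did not pass (0.11 ± 0.16, SE, limma adjusted p = 0.755). All 4 reserve zone markers were lower (SFRP5, APOE, CLU and PTHLH). None of the 5 measured cartilage markers differed at the threshold, and COL2A1 and ACAN had mean signals of 25060 and 17964 in HZ and 23572 and 16853 in RZ. Of 3 osteoblast markers 0 passed (limma), with summed signals of 1063 to 4344 on HZ arrays and 1383 to 17688 on RZ arrays. All 3 were lower in HZ, with log2 differences of -1.12 to -0.99 and a smallest adjusted p of 0.0515. Of 4 fibroblast markers 1 fell, PDGFRA (-1.01 ± 0.21, SE, adjusted p = 0.0235). The dimmer PDGFRA probe sets gave 0.09 and 0.14 without passing. The arrays of pairs 1 and 2 had unscaled median signals of 41.5 to 55.6 and those of pairs 3 to 6 of 119.5 to 149.0, and differences are therefore also given within each of these sets, which no label names as batches. The log2 ratio of the 3′ to the 5′ actin probe set, a sign of RNA or copy length, averaged 2.79 ± 0.594 for HZ and 2.10 ± 0.395 for RZ (SD, n = 6). Every pair had the larger ratio on its HZ array (two-sided p = 0.03125 by exact sign flips, the smallest possible, and 0.09375 adjusted over 3 controls). The same ratio of GAPDH averaged 0.518 ± 0.650 for HZ and 0.103 ± 0.284 for RZ, larger on the HZ array in 5 of 6 pairs (exact p = 0.125, adjusted p = 0.1875). That of EF1A averaged -2.49 ± 0.393 for HZ and -2.26 ± 0.295 for RZ, larger on the HZ array in 1 of 6 pairs (exact p = 0.40625). The part of these ratios in the results below was not tested. Over all probe sets 782 rose and 712 fell, 368 and 215 with 1 added in place of 16, 315 and 163 on the log2 deposited ratio, and 505 and 326 without the pair as a block. Falls outnumbered rises with 64 added (1017 rose and 1120 fell), without dim probe sets (1055 and 1159), with a variance trend (988 and 1075) and without pair 3 (645 and 895).

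Of the alpha subunits, EPAS1 rose and HIF1A did not pass. The brighter EPAS1 probe set (Bt.4353.2.S1_at) had a lowest, median and highest signal of 3084, 4755 and 5672 in HZ, against 1157, 1368 and 1636 in RZ. All HZ arrays lay well above all RZ arrays. The log2 difference was 1.68 ± 0.17 (SE, limma adjusted p = 0.00149), a 3.20-fold rise, with 0.91 in pair 2 and 1.67 to 1.97 in the other pairs. By size it ranked 88 among all rises. The dimmer EPAS1 probe set (Bt.4353.1.S1_at) had 160, 197 and 270 in HZ, against 50.1, 88.7 and 140.5 in RZ, again with no overlap. It rose by 1.17 ± 0.15 (SE, adjusted p = 0.00349), 2.25-fold, and in 6 of 6 pairs.

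EPAS1 is also known as a gene of blood vessel lining, so markers of those cells were read beside it. Of 10 endothelial markers 9 were measured, none was higher in HZ and 1, PECAM1, was lower (-1.06 ± 0.23, SE, adjusted p = 0.0279). The summed signal of the 9 ranged from 312 to 714 on HZ arrays and from 605 to 913 on RZ arrays, and the von Willebrand factor gene VWF had mean signals of 7.86 in HZ and 5.93 in RZ. The largest difference upwards among them was that of CLDN5, at 0.62 ± 0.27 (SE, adjusted p = 0.22). The part of such cells in the EPAS1 result was not tested.

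HIF1A was read by 1 probe set (Bt.4184.1.S2_at), which had 10605, 11206 and 14919 in HZ, against 8997, 10269 and 12463 in RZ. The zones overlapped, and HIF1A was higher in HZ in 4 of 6 pairs by at most 0.52 (pair 3). The difference was 0.19 ± 0.14 (SE, adjusted p = 0.494), with a 95% interval of -0.13 to 0.51. This probe set lay among the brightest 1% of all, where 4.15% of 241 probe sets passed and the median size of a difference was 0.13, against 12.1% and 0.26 in the next 4%. Whether signals near the top of the range understate differences was not tested. The probe sets Bt.4138.2.S1_at of VEGFA and that of NDRG1 lay in the same 1%.

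EGLN1 and EGLN3 encode prolyl hydroxylases that sense oxygen, and both are known as HIF targets, which makes them part of a feedback. All 3 EGLN1 probe sets rose. The brightest (Bt.1684.1.S1_at) had 1434, 2115 and 2882 in HZ, against 816, 954 and 1237 in RZ, with no overlap and a difference of 1.08 ± 0.15 (SE, adjusted p = 0.00536), 2.11-fold. The next (Bt.15704.1.S1_at) had 625, 1154 and 1331 in HZ, against 253, 527 and 641 in RZ, so that 5 of 6 HZ arrays lay above all RZ arrays. It rose by 1.09 ± 0.14 (SE, adjusted p = 0.00441). The dimmest (Bt.15704.2.S1_at) had 238, 381 and 644 in HZ, against 112, 223 and 281.5 in RZ. It rose by 0.83 ± 0.17 (SE, adjusted p = 0.0209), also with 5 of 6 HZ arrays above all RZ arrays. Its call was lost without pair 1, 5 or 6 (adjusted p = 0.0659, 0.0647 and 0.0624), without the pair as a block (0.0868) and with 1 added (0.0587).

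EGLN3 was dim. Its probe set (Bt.23232.1.S1_at) had 17.3, 72.4 and 131 in HZ, against 12.5, 67.5 and 146 in RZ. It was higher in HZ in 3 of 6 pairs, from -0.99 in pair 1 to 0.95 in pair 2, with a mean of -0.004 ± 0.23 (SE, adjusted p = 0.995). The 95% interval was -0.51 to 0.50.

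**Figure D2:**
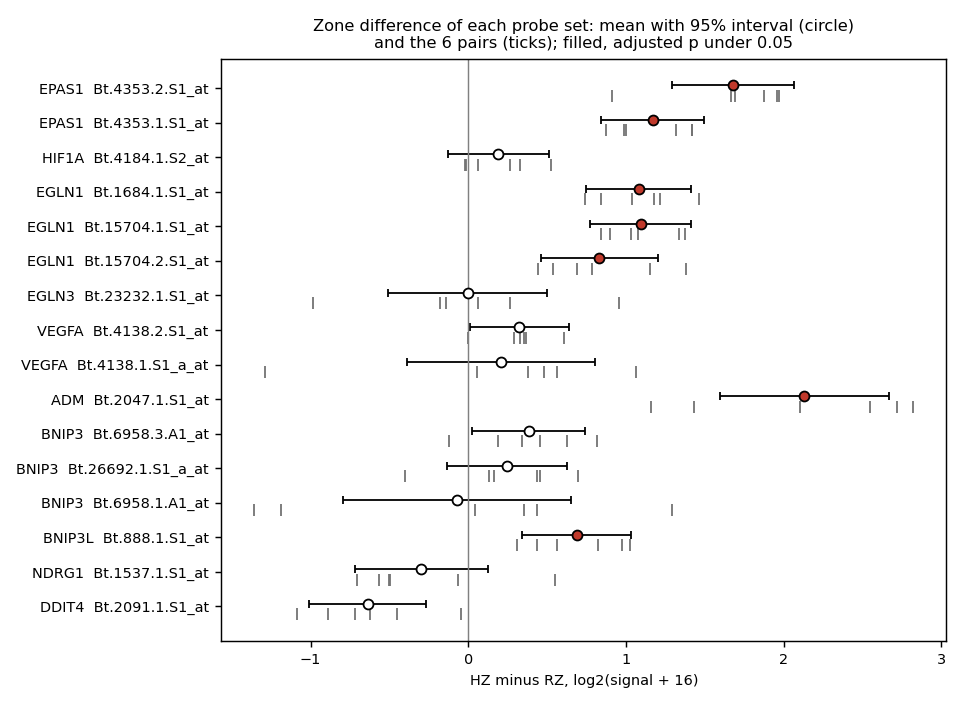
Difference HZ minus RZ of log2(signal + 16) for each of the 16 probe sets, with circles and bars for the mean and its 95% interval and ticks for the 6 pairs. The 7 filled circles passed, from 0.69 for BNIP3L to 2.13 for ADM. The circles of DDIT4 (-0.64), NDRG1 (-0.30), the dimmest BNIP3 probe set (-0.07) and EGLN3 (-0.004) lie below 0 without passing.

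Among the secreted factors, ADM rose the most of the 16 probe sets. ADM encodes adrenomedullin, a peptide that widens vessels and acts on their lining. Its probe set (Bt.2047.1.S1_at) had 1907, 3007 and 6438 in HZ, against 414, 758 and 1089 in RZ, with no overlap. The rise was 2.13 ± 0.24 (SE, adjusted p = 0.00205), 4.38-fold, from 1.16 in pair 2 to 2.82 in pair 4. The HZ arrays varied more in signal than the RZ arrays, with SDs of 1646 around a mean of 3291 in HZ and 256 around 717 in RZ, while on the log2 scale the SDs were 0.62 and 0.54.

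VEGFA, the main growth factor for vessels, did not pass at either probe set. The brighter (Bt.4138.2.S1_at) had 6224, 9186 and 11264 in HZ, against 6226, 7386 and 7417 in RZ. Thus 5 of 6 HZ arrays lay above all RZ arrays, while HZ-2 lay at the level of RZ-2. The difference was 0.32 ± 0.14 (SE, adjusted p = 0.211), with a 95% interval of 0.01 to 0.64 that is not adjusted for the number of probe sets. The dimmer (Bt.4138.1.S1_a_at) had 448, 841 and 1756 in HZ, against 397, 776 and 1255 in RZ, and gave 0.21 ± 0.27 (SE, adjusted p = 0.717). It was lower in HZ in pair 3 alone, by -1.29, and without that pair the difference was 0.51 (adjusted p = 0.125).

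Macrophages and osteoclasts lie next to hypertrophic cartilage, and macrophages are known to make ADM and VEGFA, so their markers are given here. Of 8 measured, 5 rose and 0 fell (CSF1R, C1QA, C1QB, CTSK and ACP5), CD14 gave -0.81 ± 0.26 (SE, adjusted p = 0.103; a dimmer probe set fell by 1.02) and CD68 0.14 ± 0.14 (SE, adjusted p = 0.643). Their summed signal ranged from 8449 to 11068 on HZ arrays and from 3300 to 7523 on RZ arrays. CTSK alone averaged 6683 in HZ and 2522 in RZ. The part of macrophages and osteoclasts in the ADM result was not tested.

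The mitophagy receptors BNIP3 and BNIP3L sit in the outer mitochondrial membrane and mark mitochondria for removal. BNIP3L (Bt.888.1.S1_at) had 1961, 2250 and 3136 in HZ, against 1129, 1512 and 1669 in RZ, with no overlap. It rose by 0.69 ± 0.15 (SE, adjusted p = 0.0313), 1.61-fold, in 6 of 6 pairs. The call was the least firm of the 7: it held without pair 2 and was lost without any of the other 5 pairs (adjusted p = 0.0557 to 0.101), with 1 added (0.0754) and on the deposited ratio (0.0797). BNIP3L is known for clearing mitochondria from maturing red cells. Of 7 erythroid markers 6 were measured and 0 passed (limma), with summed signals of 102 to 241 on HZ arrays and 129 to 291 on RZ arrays, and the red cell enzyme gene ALAS2 had mean signals of 2.91 in HZ and 2.77 in RZ.

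None of the 3 BNIP3 probe sets passed. The brightest (Bt.6958.3.A1_at) had 1344, 3200 and 4480 in HZ, against 1465, 2142 and 3530 in RZ. It was higher in HZ in 5 of 6 pairs, by 0.38 ± 0.16 (SE, adjusted p = 0.195). The next (Bt.26692.1.S1_a_at) had 470, 895 and 1655 in HZ, against 575, 738 and 1016 in RZ. It gave 0.25 ± 0.17 (SE, adjusted p = 0.448), and each of these was lower in HZ in pair 1 alone. The dimmest (Bt.6958.1.A1_at) gave -0.07 ± 0.32 (SE, adjusted p = 0.933), from -1.36 in pair 1 to 1.29 in pair 4. On the 4 arrays of pairs 1 and 2 this probe set read between 8.63 and 47.1, and on the 8 others between 193 and 598.

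The stress regulators were lower in HZ without passing. DDIT4 encodes REDD1, an inhibitor of mTORC1 that hypoxia and glucocorticoids induce. Its probe set (Bt.2091.1.S1_at) had 2597, 3597 and 5566 in HZ, against 3567, 6131 and 9184 in RZ. The zones overlapped, but DDIT4 was lower in HZ in 6 of 6 pairs, from -1.09 in pair 1 to -0.04 in pair 6. The difference was -0.64 ± 0.17 (SE, adjusted p = 0.0532), and it passed as lower without pair 6 (-0.76, adjusted p = 0.0467), with 64 added (adjusted p = 0.0223), without dim probe sets (0.0252) and with a variance trend (0.0237).

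NDRG1, a stress-responsive gene often read as a mark of hypoxia, had 4475, 7705 and 11693 in HZ, against 7298, 8516 and 13268 in RZ (Bt.1537.1.S1_at). It was lower in HZ in 5 of 6 pairs and higher by 0.55 in pair 3. The difference was -0.30 ± 0.19 (SE, adjusted p = 0.399), and without pair 3 it was -0.47 (adjusted p = 0.106).

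Whether close relatives differed from each other was tested pair by pair at their brightest probe sets, in 3 comparisons. The zone difference of EPAS1 exceeded that of HIF1A in 6 of 6 pairs, by 1.49 ± 0.16 (SE, two-sided p = 0.03125 by exact sign flips, the smallest possible, adjusted p = 0.0625 over 3). That of EGLN1 exceeded that of EGLN3 by 1.08 ± 0.34 (SE, exact p = 0.0625; adjusted p = 0.0625), in all pairs but pair 2, where it was 0.21 smaller. That of BNIP3L exceeded that of BNIP3 by 0.30 ± 0.15 (SE, exact p = 0.0625; adjusted p = 0.0625), again in all pairs but pair 2. At other probe sets of the same genes EPAS1 minus HIF1A gave 0.98 (exact p = 0.03125), EGLN1 minus EGLN3 1.10 and 0.83 (exact p = 0.0625 and 0.125), and BNIP3L minus BNIP3 0.44 and 0.76 (exact p = 0.15625 and 0.1875). None of the 3 passed after adjustment, so a difference between relatives in their response to zone was not established. With 6 pairs, a comparison could pass after adjustment only if another also reached the smallest possible p.

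**Figure D3:**
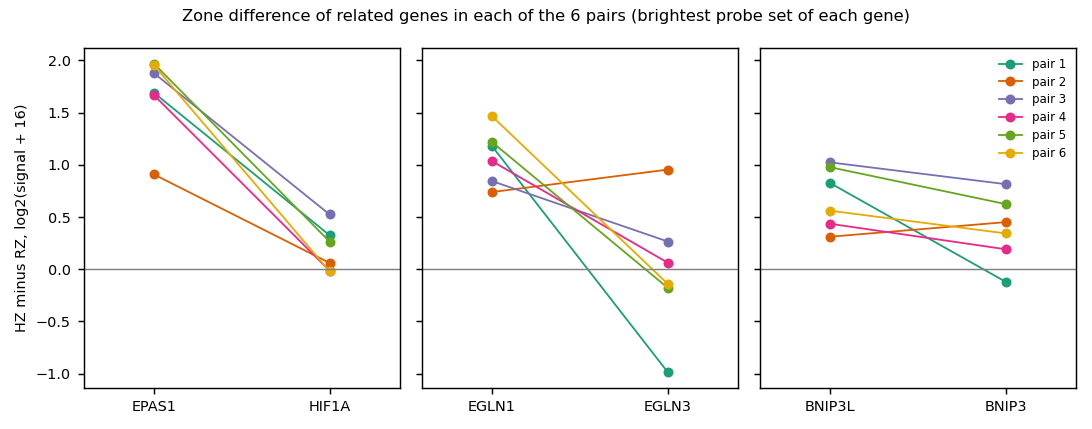
Difference HZ minus RZ of log2(signal + 16) in each of the 6 pairs for 3 sets of related genes, with a coloured line per pair. All 6 lines fall between EPAS1 and HIF1A, while the line of pair 2 rises between EGLN1 and EGLN3 and between BNIP3L and BNIP3.

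The pairs did not contribute alike. In 6 of the 7 probe sets that rose the smallest rise was in pair 2, and the dimmer EPAS1 probe set was the exception, with its smallest in pair 1. The median rise of the 7 was 0.84 in pair 2 and larger in each other pair, up to 1.42 in pair 6. Pair 2 was also the pair with the smallest rise for 386 of all 782 probe sets that rose (49.4%), whose median was 0.59 there and 0.98 to 1.18 in the others. The 6 hypertrophic zone markers had a median of 0.78 in pair 2 and 0.82 to 1.36 in the others.

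All 7 probe sets that rose were higher in HZ in both sets of arrays. EPAS1 gave 1.30 in pairs 1 and 2 and 1.87 in pairs 3 to 6 at its brighter probe set, ADM 1.94 and 2.23, the brightest EGLN1 probe set 0.96 and 1.14, and BNIP3L 0.57 and 0.75. A test of the difference between the sets passed for 0 of the 16 (limma with a zone-by-set term; 0 at an unadjusted p under 0.05), where 0.00833% of all probe sets passed. Within pairs 3 to 6 alone 5 of the 16 passed, all of them among the 7. Without pairs 3 and 4, whose HZ arrays had the highest 3′ to 5′ GAPDH ratios (1.46 and 1.20 on the log2 scale), EPAS1 at 1.63 (adjusted p = 0.0466) and ADM at 2.13 (adjusted p = 0.0442) were the 2 of the 16 that passed, a setting chosen after seeing the data. EGLN1 then gave 1.15 at each of its 2 brighter probe sets (adjusted p = 0.0541 and 0.0531).

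In level, as against zone difference, the sets of pairs also stood apart. Averaged over both zones of each pair, 15 of the 16 probe sets were higher in pairs 3 to 6 than in pairs 1 and 2, where 51.1% of all probe sets were, with a median log2 difference of 0.55 against 0.01 over all. Tested on pair means (limma, 4 pairs against 2, a test added after seeing the data), 2 of the 16 passed, where 2.02% of all probe sets did: the dimmest BNIP3 probe set at 3.20 ± 0.23 (SE, adjusted p = 0.0036) and EGLN1 (Bt.15704.1.S1_at) at 0.88 ± 0.18 (SE, adjusted p = 0.046). EGLN3 stood at 1.30 ± 0.30 (SE, adjusted p = 0.065) and EPAS1 at 0.02 ± 0.20 (SE, adjusted p = 0.971). The sets also differ in unscaled signal, as given above, and its part in these level differences was not tested.

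Other genes of the pathway were read from lists, with the brightest probe set per gene. For scale, 7.73% of all 9155 named genes passed on that basis, 4.17% as higher and 3.56% as lower, with a median of -0.01. Of 17 other HIF pathway components listed 10 were measured, and HIF3A, VHL, HIF1AN and EP300 were among those that were not. Of the 10, 1 rose, 0 fell and 9 did not pass (median 0.08). It was CITED2, a HIF-induced protein that competes with HIF for its coactivators, at 0.67 ± 0.16 (SE, adjusted p = 0.0352). ARNT2, a relative of the shared partner, gave 0.38 ± 0.14 (SE, adjusted p = 0.143), higher in 6 of 6 pairs.

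Of 23 listed HIF targets of glucose use and pH 18 were measured, and HK2, PDK1, CA9, CA12 and GYS1 were not. The 18 included 0 that rose and 4 that fell (median -0.26). The phosphofructokinase PFKP fell by 1.36, HK1 by 0.85, PKM by 0.77 and PGAM1 by 0.65, each in 6 of 6 pairs. The glucose transporter SLC2A1 gave -0.59 ± 0.20 (SE, adjusted p = 0.126), PGK1 -0.08 ± 0.15 and LDHA -0.36 ± 0.21. The dimmer LDHA probe sets gave -0.09 ± 0.20 and 0.49 ± 0.21 (SE, adjusted p = 0.853 and 0.207), the last higher in HZ in 5 of 6 pairs.

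Of 38 listed HIF targets outside glucose use 30 were measured, of which 4 rose and 2 fell (median -0.10). LOX, which cross-links collagen, rose by 3.18 ± 0.27 (SE, adjusted p = 0.000708). HMOX1, the haem-degrading oxygenase, averaged a signal of 4862 ± 606 on HZ arrays and 1741 ± 235 on RZ arrays (SD, n = 6 each) and rose by 1.48 ± 0.16 (SE, adjusted p = 0.0018). MXI1, a repressor that opposes MYC, rose at all 3 of its probe sets, by 1.07, 0.97 and 1.11, and CITED2, named above, was the other. The chemokine receptor CXCR4 fell by 1.74 ± 0.37 (SE, adjusted p = 0.0269) and the mitochondrial subunit NDUFA4L2 by 0.99 ± 0.23 (SE, adjusted p = 0.0365), whose dimmer probe set gave -0.23 ± 0.15. CXCR4 is also a leukocyte gene, and 3 of 4 leukocyte markers fell with it at their brightest probe sets (PTPRC, NKG7 and CATHL1). A dimmer NKG7 probe set gave 0.78 ± 0.29 (SE, limma adjusted p = 0.144), higher in HZ in 6 of 6 pairs. The dimmer PTPRC probe sets gave -0.24 and 0.19 without passing. The summed signal of the 4 markers was 155 to 820 on HZ arrays and 320 to 6330 on RZ arrays. CATHL1 alone averaged 277 in HZ and 1774 in RZ. The part of leukocytes in the fall of CXCR4 was not tested.

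Genes reported in mouse chondrocytes to respond to Epas1 went both ways: 3 rose and 1 fell of 10 measured (median 0.22). The collagenase MMP13 rose by 2.04, the hedgehog ligand IHH by 1.54 and PTGS2, which makes prostaglandins, by 0.97, while the aggrecanase ADAMTS4 fell by 1.68. MMP13, IHH and COL10A1 are also among the hypertrophic zone markers above. MMP3 gave 0.12 ± 0.16 and VEGFA is described above. The brightest of 4 NOS2 probe sets, of the inducible nitric oxide synthase, gave -0.48 ± 0.17 (SE, adjusted p = 0.131), and a dimmer one fell by 1.38 ± 0.23 (SE, adjusted p = 0.0106).

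**Figure D4:**
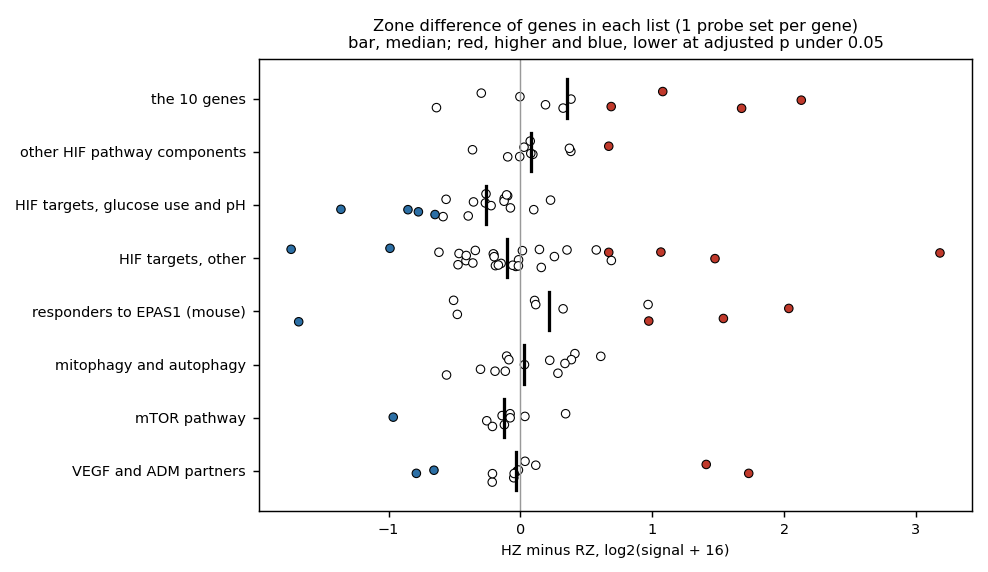
Difference HZ minus RZ of log2(signal + 16) for each measured gene (dot, brightest probe set) of the 10 genes and of 7 other lists, with a bar for each median and filled dots for adjusted p under 0.05. The filled dots of glucose use lie below 0, and 4 of the 10 genes are filled above 0.

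A list of 12 receptors and partners of VEGF and adrenomedullin, which includes related ligands such as VEGFC, was measured. Of these 2 rose and 2 fell (median -0.04). ACKR3, a scavenging receptor that binds adrenomedullin and the chemokine CXCL12, averaged a signal of 4854 ± 993 on HZ arrays and 1435 ± 178 on RZ arrays (SD, n = 6 each) and rose by 1.73 ± 0.16 (SE, adjusted p = 0.0012). NRP1, a co-receptor of VEGF, rose by 1.41 ± 0.23 (SE, adjusted p = 0.00997), and its relative NRP2 fell by 0.79 ± 0.15 (SE, adjusted p = 0.0165). A dimmer NRP2 probe set gave -0.53 ± 0.24 (SE, adjusted p = 0.231). The other fall was that of the ligand VEGFC (-0.66). The adrenomedullin receptor CALCRL, dim at mean signals of 42.2 in HZ and 45.4 in RZ, gave 0.12 ± 0.22, and its partners RAMP1, RAMP2 and RAMP3 gave -0.05, -0.21 and 0.03.

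Next to the mitophagy receptors, 0 of 13 mitophagy and autophagy genes passed at their brightest probe set (limma, median 0.03). GABARAP, to which such receptors bind, gave 0.61 ± 0.16 (SE, adjusted p = 0.0541), higher in 6 of 6 pairs. The autophagy receptor OPTN gave -0.56 ± 0.17 (SE, adjusted p = 0.0809), and one of its dimmer probe sets fell by 0.88 ± 0.15 (SE, adjusted p = 0.0119). In the mTOR pathway, which DDIT4 restrains, 1 of 9 genes passed (median -0.12). It was SESN2, a stress-induced inhibitor of mTORC1, which fell by 0.97 ± 0.15 (SE, adjusted p = 0.00774), with its dimmer probe sets at -1.19 and -0.87. RPTOR gave -0.26 ± 0.17 (SE, adjusted p = 0.428).

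The genes with the pattern most like that of EPAS1 over the 12 arrays, by Pearson r of log2 signal with its brighter probe set among 13276 probe sets of other genes, were NT5DC1 (0.988), NPR3 (0.978), MTMR10 (0.973), MPZL2 (0.970) and NCALD (0.968). The arrays share zones and pairs, so r with EPAS1 mostly carries the zone difference, while HIF1A itself did not pass between the zones. Each r is a description. Of the other probe sets described here, ADM had the highest r with EPAS1 (0.929), above the dimmer EPAS1 probe set (0.880), and DDIT4 the lowest (-0.630). For HIF1A the most alike were DSTN (0.947), CALM (0.927), RPL7 (0.912), RPS3A (0.909) and BTG1 (0.906), none of which passed between the zones, and BNIP3L had the highest r of the genes described here (0.814).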

How the data were processed

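The authors deposited linear ratios, 1 per probe set and array, from 12 one-colour biotin-labelled arrays. What software and normalization made them is not given in the sources used here. Read from the values, 90.8% of the 24128 probe sets were divided by their own median over the arrays and the rest by 1 fixed value. The ratios of probe sets divided by the fixed value fall on whole multiples of a step per array. For each other probe set a divisor was searched that brings its arrays onto whole steps, and one was found for all. The signal was recovered from these steps and divisors (largest distance 0.0605 of a step). Only divisors with small distances were accepted, so for the searched probe sets this distance is no check of the signal. The 49 values at the floor ratio of 0.01 were left out of the search and of this distance. Of 3988 simulated probe sets, made from whole steps and without floor values, 99.9% were recovered rightly. Because whole steps were built into that run, it cannot show that the deposited ratios were made in this way. The signal unit assumes a step of 0.1, which no source states, and thereby sets how much the added 16 weighs. The planned test was on log2(signal + 16), while the plan expected the deposited unit to be a ratio or a signal. The recovered signal was used, and the deposited ratio served as an alternative.

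Tests used limma 3.58.1 in R 4.3.3 on log2(signal + 16) of 24016 probe sets, with no further normalization and the pair as a fixed block. The fit was also run on data simulated with independent random spread for each probe set, so that run does not speak of correlated probe sets. The series description compares pairs, and same-numbered arrays deviated together (correlations of 0.124 to 0.447, all above 0.1), although HZ-3 matched RZ-6 better than RZ-3. Symbols came from the platform annotation, and all 16 probe sets matched the RefSeq table of ARS-UCD2.0 by Entrez identifier. The genes, lists and tests were chosen with earlier results of these data known. Named from the lists were genes that passed (up to 6 a list), where fewer than 2 passed the 2 with the smallest adjusted p, markers that passed or bear on a gene described, and the 5 genes most like EPAS1 and HIF1A. Genes named otherwise (PGK1, LDHA, SLC2A1, MMP3, CALCRL, RAMP1, RAMP2, RAMP3, CD14, CD68, VWF, ALAS2, COL10A1, COL2A1, ACAN and NOS2) were chosen after their values were seen. Alternatives were another constant, the ratio itself, other normalizations, a filter, a variance trend, no block and left-out pairs. Precision is limited by how many arrays there are.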

Additional observations from a re-analysis of the deposited data

Results flagged for a closer look

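BNIP3L on HZ-3 stood apart from the other HZ arrays, at a signal of 3136 against 1961 to 2302 on the other 5. It was the 1 such value in 32 groups of 6 arrays (16 probe sets in 2 zones), where chance gives about 1 in 20. Without pair 3 the difference of BNIP3L was 0.62 (limma, adjusted p = 0.0557).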

How the results depend on the processing

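The 16 probe sets were tested under 17 other settings, giving 272 values. Of these 231 kept their direction and side of the threshold, 27 kept the direction but no longer passed, 4, all of DDIT4, newly passed and 10 changed sign, none of them at a probe set that had passed. The changes of sign were at EGLN3 (0.0158 with 1 added, 0.0193 on the deposited ratio, 0.0017 in pairs 3 to 6) and at the dimmest BNIP3 probe set (0.0075 with 64 added, 0.14 in pairs 3 to 6), besides left-out pairs, with ranges of -0.20 to 0.19 and -0.34 to 0.19. Of the 16, 8 passed with 64 added, without dim probe sets or with a variance trend, 6 without the pair as a replicate block, 5 with 1 added, on the deposited ratio or in pairs 3 to 6, 5 to 7 with a pair left out, 2 without pairs 3 and 4, and 0 in pairs 1 and 2 alone (limma; 7 at an unadjusted p under 0.05). Of all probe sets, 1494 passed, 2214 without dim probe sets (13.8% of those tested), 2137 with 64 added (8.90%), 2063 with a variance trend (8.59%), 1667 after quantile normalization, 1492 after median centring, 831 without the replicate block, 583 with 1 added, 478 on the deposited ratio, 557 to 1540 with a pair left out, 336 in pairs 3 to 6, 139 without pairs 3 and 4, and 0 in pairs 1 and 2 (2931 unadjusted). The causes of these changes were not tested, and the settings with pairs left out also had fewer arrays. With 64 added the EPAS1 difference from HIF1A (1.46) and that of EGLN1 from EGLN3 (1.05) passed (adjusted p = 0.0469). With a pair left out the 3 comparisons of relatives ran from 1.39 to 1.62, 0.87 to 1.34 and 0.18 to 0.39.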
